A study of Homo sapiens with 10 samples.

Results

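The cell-division genes described here were 59 genes of mitosis, the spindle and the kinetochore, taken by gene symbol from the 58735 genes of a table of expression levels (FPKM, fragments scaled by transcript length and library size). The symbols were listed with earlier results of the same libraries known, and no measured value entered the rule that selected the rows. All 59 symbols were found, each on 1 row, and were sorted into 9 roles by what their proteins are known to do. RNA had been sequenced from TPC-1, a human papillary thyroid carcinoma cell line whose genotype carries a CCDC6-RET fusion, which joins the kinase domain of the receptor RET to part of CCDC6. Each of the 5 groups held 2 libraries, which the series calls biological replicates. DMSO was the parental line given the solvent for 24 h, and BLU667 was the parental line exposed for 24 h to 5 µM of the drug of that name, pralsetinib, which blocks RET kinase activity. BR8, BR10 and BR16 were 3 colonies grown out of TPC-1 in 5 µM BLU667, called adapted colonies here. The sample labels give their exposure as over 50 days and the series description as over 5 months. All 5 groups therefore come from 1 cell line with the same fusion, the colonies carry the drug as well as their history, and each colony is a single one, so that differences between colonies are differences between 3 derived cultures.

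Mitosis is started by the kinase CDK1 bound to its cyclins, and the Aurora and Polo-like kinases then drive centrosome maturation and spindle assembly. Kinetochores, protein assemblies built on centromeric chromatin, attach chromosomes to spindle microtubules, and the spindle checkpoint holds back the anaphase-promoting complex until the attachments are made. Most of these genes are transcribed late in the cell cycle and silenced in resting cells, through promoter elements that include the CHR (cell cycle genes homology region) and CCAAT boxes. RET fusions drive growth signalling in papillary thyroid carcinoma.

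Promoters are shown for 4 genes of different roles that hold the CHR letters, because the whole set fell under BLU667 and these elements are known from promoters of late cell cycle genes. The sequences are the RefSeq promoters on build GRCh38.p14, from 250 bases before to 50 bases after the annotated start, written 5′ to 3′ on the gene's strand. Capitals mark every TTTGAA or CCAAT found on either strand, the opposite strand reading TTCAAA or ATTGG.
CDK1, chr10:60778081-60778380, plus strand: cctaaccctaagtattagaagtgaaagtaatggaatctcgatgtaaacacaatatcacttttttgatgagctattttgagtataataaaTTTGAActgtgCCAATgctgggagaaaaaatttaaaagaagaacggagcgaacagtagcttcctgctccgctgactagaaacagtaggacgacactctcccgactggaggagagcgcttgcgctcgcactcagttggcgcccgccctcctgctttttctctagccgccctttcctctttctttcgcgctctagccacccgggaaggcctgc
PLK1, chr16:23678639-23678938, plus strand: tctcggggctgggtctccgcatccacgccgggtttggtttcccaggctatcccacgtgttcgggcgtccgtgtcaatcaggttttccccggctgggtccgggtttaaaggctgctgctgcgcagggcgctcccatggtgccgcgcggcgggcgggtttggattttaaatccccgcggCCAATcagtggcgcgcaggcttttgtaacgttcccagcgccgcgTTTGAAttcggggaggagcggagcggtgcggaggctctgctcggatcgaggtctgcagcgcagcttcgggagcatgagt
TOP2A, chr17:40417847-40418146, minus strand: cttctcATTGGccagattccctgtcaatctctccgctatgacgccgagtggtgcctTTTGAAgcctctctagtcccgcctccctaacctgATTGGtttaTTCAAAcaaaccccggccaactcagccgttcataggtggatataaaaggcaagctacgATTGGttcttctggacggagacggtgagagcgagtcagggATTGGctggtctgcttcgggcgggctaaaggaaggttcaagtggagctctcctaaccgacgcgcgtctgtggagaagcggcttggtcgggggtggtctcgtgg
BUB1B, chr15:40160819-40161118, plus strand: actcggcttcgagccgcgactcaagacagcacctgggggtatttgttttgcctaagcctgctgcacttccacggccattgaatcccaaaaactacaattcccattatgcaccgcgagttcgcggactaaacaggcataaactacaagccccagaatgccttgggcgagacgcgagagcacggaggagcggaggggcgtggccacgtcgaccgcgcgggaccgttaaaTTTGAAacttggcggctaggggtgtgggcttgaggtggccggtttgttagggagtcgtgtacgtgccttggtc
In PLK1 the TTTGAA began 29 bases before the start and the CCAAT 73 bases before it. BUB1B had TTTGAA at 23 bases before the start and no CCAAT in the window, CDK1 had the pair farther out at 161 and 150 bases, and TOP2A had TTTGAA or its complement at 194 and 151 bases with 4 CCAAT boxes on the opposite strand.

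Of the 59 genes, 50 were matched to a RefSeq promoter; AURKA, BIRC5, CENPH, CENPM, KNL1, PBK, TPX2, TTK and UBE2C were not. TTTGAA, searched on both strands, was in 34 of the 50 (68%), against 15.2% of all 35116 promoters of the same length and 9.26% of the 9246 promoters matched to tested genes. CCAAT, searched the same way, was in 37 of the 50 (74%), against 34.6% of all promoters and 36.8% of those of tested genes. Both were in 25 of the 50 (50%), against 5.90% and 4.01%. Neither string contains the other, although neighbouring matches can share end letters. In 29 promoters a TTTGAA lay between 60 bases before and 50 bases after the start. How common this position is over all promoters was not counted. A match is a run of letters and not a bound site. The median log2 change under BLU667 was -3.88 over the 33 tested genes with TTTGAA and -3.76 over the 16 without it.

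Every library gave between 15243703 and 21904245 reads in genes. Reads were recovered as FPKM times gene length, divided by a unit fitted to each library, and came out whole for all values within 0.05 reads. The FPKM of the 2 libraries of a group correlated across genes at r = 0.978 (DMSO) to 0.989 (BR16) on the log2(FPKM + 1) scale, as a description. Within DMSO, replicate 2 exceeded replicate 1 in 44 of the 59 genes, by a median of 1.18 times over the tested ones, and over all tested genes the difference between these 2 libraries fell with the GC content of the transcripts (Spearman -0.61). Of 8 thyroid follicular markers only PAX8 and FOXE1 passed the filter, and the follicular markers TSHR, SLC5A5 and NKX2-1 were below 0.1 FPKM in all 10 libraries. Of the 5 epithelial markers KRT8 and KRT18 passed, with a summed level of the list of 48.9 to 62.8 FPKM in DMSO, 28.2 to 28.6 in BLU667, 46.9 to 52.5 in BR8, 45.1 to 47.8 in BR10 and 97.4 to 109.7 in BR16. Of 6 fibroblast markers COL1A1, LUM and PDGFRB passed, summing to 3.09 to 3.32 FPKM in DMSO, 13.1 to 17.5 in BLU667, 5.66 to 7.40 in BR8, 0.750 to 0.848 in BR10 and 3.33 to 3.86 in BR16, while COL1A2, COL3A1 and DCN were below 0.1 in every library. None of 4 immune or 3 endothelial markers passed, and PTPRC, CD3E, CD68, MS4A1 and PECAM1 were below 0.1 FPKM throughout. The summed follicular list was 39.0 to 57.1 FPKM in DMSO, 38.3 to 42.4 in BLU667, 63.0 to 64.6 in BR8, 54.1 to 57.4 in BR10 and 97.8 to 98.5 in BR16. The part of these marker differences in the results below was not tested.

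Genes were tested across the whole table with limma on log2(FPKM + 1), for the 13927 genes at 1 FPKM or more in at least 2 libraries, and are called where the Benjamini-Hochberg adjusted p over all of them is below 0.05. Log2 differences are given ± their SE from that fit, with n = 2 libraries per group, so that p-values measure the spread between libraries. The filter kept 58 of the 59 genes. PRC1, which bundles microtubules at the spindle midzone, did not pass: it was listed at 0.303 and 0.263 FPKM in DMSO, 0.0617 and 0.0104 in BLU667, 0.196 and 0.0537 in BR8, 0.258 and 0.223 in BR10, and 0.156 and 0.102 in BR16. At these levels, and with 58.4% of its exon bases shared with other annotated genes in GENCODE 29, its values are uncertain, since the libraries did not mark strand. NUSAP1, which shares 62.2%, is uncertain for the same reason, and 22 of the 59 genes share some exon bases: NUF2, MAD2L1, KIF18A, ANLN, KIF4A, SPC24, KIF23, KIF2C, KIF20A, CENPA, CDC25C, CCNA2, BUB1B, CENPU, PLK1, KIFC1, KIF22, CENPN, SMC4 and NCAPG besides those named, from 0.1% in NUF2 to 33.1% in NCAPG. PTTG1 and KIF4A also have near-identical retrocopies that the counting may split.

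After 24 h of BLU667 all 58 tested genes were lower than in DMSO, against 31.2% of all tested genes called lower and 29.0% called higher. The median log2 change of the 58 was -3.89, from -5.42 in TOP2A to -1.88 in NUSAP1 on the log2(FPKM + 1) scale, beside -0.01 over all tested genes, and the adjusted p (limma) ran from 3.74e-08 to 2.98e-05. As group means, BLU667 held a median of 3.81% of the DMSO level, from 0.568% in SPC25 to 22.8% in CENPH. In 39 of the genes it was under 5%, and in 9 it was above 10%. Both BLU667 libraries lay below both DMSO libraries in all 59 genes, PRC1 with its uncertain values included. How often this held over all tested genes was not counted. In RNA from a whole culture, fewer dividing cells and less of these RNAs in each cell cannot be told apart.

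In the adapted colonies, which were still in the drug, the same 58 genes stood between these levels. As the mean of the 3 colonies, all 58 were lower than in DMSO, with a background of 26.3% of tested genes lower, and all 58 were higher than in BLU667, with a background of 32.4% higher. The median log2 difference was -1.16 from DMSO (-2.02 in PBK to -0.42 in ANLN; all tested genes -0.03) and 2.79 from BLU667 (0.30 in CENPH to 4.17 in TOP2A; all tested genes 0.03). The 2 comparisons with DMSO share the DMSO libraries, and the SE of the colony mean comes from libraries and not from colonies. With the 3 colony means as replicates 42 of the 58 were called lower than DMSO, and 54 without DMSO replicate 2 or without BR16 replicate 2. The colony mean held a median of 43.7% of the DMSO level, from 21.9% in SPC24 to 78.8% in ANLN, and 41 genes were at or under 50%. All 6 colony libraries lay between the BLU667 and the DMSO libraries in 52 of the 58, an ordering that was not counted over all tested genes.

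Summed over the 59 genes, the level was 2110 and 2442 FPKM in the DMSO libraries, 109.4 and 122.4 in BLU667, 1095 and 1120 in BR8, 1138 and 1233 in BR10, and 821.2 and 776.7 in BR16. As a share of reads in genes this was 1.00% and 1.16% in DMSO, 0.0531% and 0.0609% in BLU667, 0.532% and 0.542% in BR8, 0.577% and 0.607% in BR10, and 0.369% and 0.349% in BR16. On this sum BR8 and BR10 lay closest, and no libraries of different groups overlapped. The heat map of all 59 genes gives the level in each library.

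**Figure D1:**
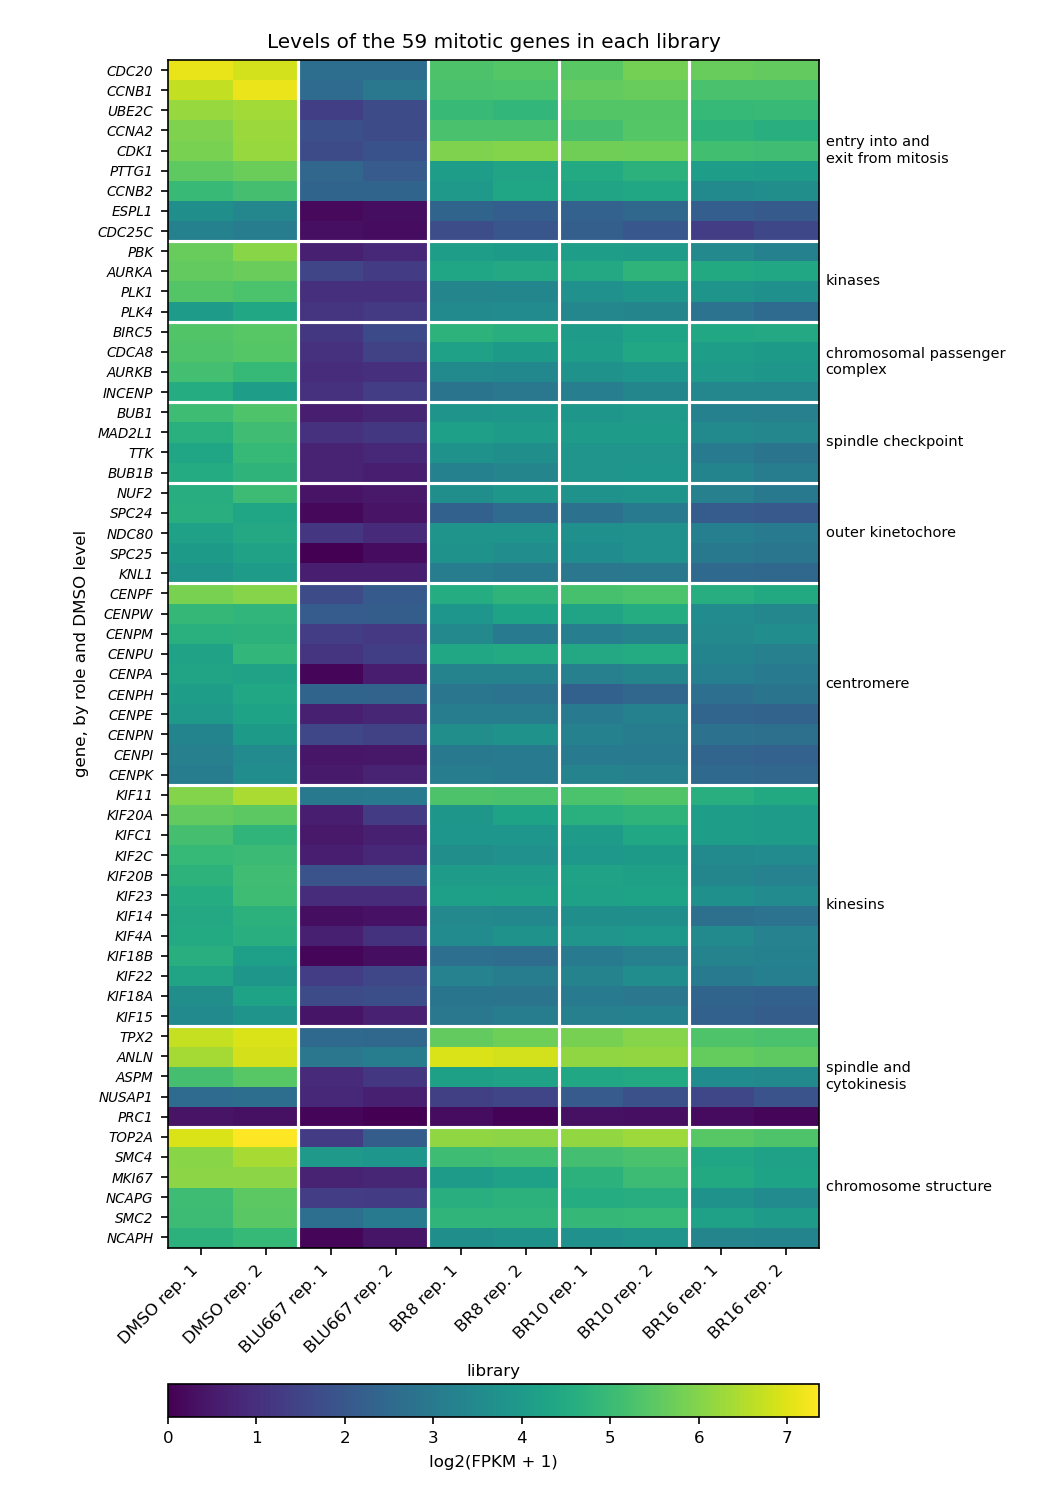
Level of each of the 59 genes (rows, grouped by role and ordered by DMSO level) in each of the 10 libraries (columns), as log2(FPKM + 1) on a colour scale. The BLU667 columns are dark in nearly every row, the 6 colony columns lie between them and the DMSO columns, and PRC1 is near 0 throughout.

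The depth of the BLU667 libraries limits how low a gene could be read. The BLU667 mean was under 1 FPKM in 26 of the tested genes, and 21 had under 100 reads over both BLU667 libraries. SPC25 had 0 reads in replicate 1 and 6 in replicate 2, CENPA 3 and 17, and NCAPH 4 and 19. Adding 1 FPKM understates the fall of such genes: with limma voom on the recovered reads the median change was -4.71 and the range -8.20 to -2.11. The order of genes by size of fall therefore depends on the scale. Where a fall is called the largest or smallest of a group below, this is on the log2(FPKM + 1) scale, and the share of DMSO left is given where it puts another gene there.

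The 9 genes of entry into and exit from mitosis all fell under BLU667 (median log2 change -4.16) and all were lower in the colonies than in DMSO (median -1.25). The CDC20 libraries read 138 and 115 FPKM in DMSO, 5.35 and 5.28 in BLU667, 38.4 and 41.4 in BR8, 43.5 and 55.4 in BR10, and 48.9 and 47.3 in BR16. CDC20, which activates the anaphase-promoting complex and was the most abundant of this group in DMSO, changed by -4.33 ± 0.13 in BLU667 and -1.45 ± 0.10 in the colonies against DMSO. UBE2C, the ubiquitin-conjugating enzyme of that complex, had the largest fall of the 9 on the log2(FPKM + 1) scale. UBE2C was at 74.2 and 79.3 FPKM in DMSO, 1.59 and 2.28 in BLU667, 30.2 and 28.5 in BR8, 40.6 and 40.7 in BR10, and 29.3 and 30.9 in BR16. Its change was -4.74 ± 0.11 (adjusted p = 5.13e-08) in BLU667, where 2.52% of its DMSO level was left, against 1.68% for ESPL1. CCNB2, a B-type cyclin, had the smallest at -2.69 ± 0.13. The CCNB2 libraries read 30.0 and 35.3 FPKM in DMSO, 4.18 and 4.19 in BLU667, 14.8 and 19.1 in BR8, 18.5 and 20.3 in BR10, and 10.5 and 11.5 in BR16. The CCNB2 libraries kept the order DMSO, colonies, BLU667 without overlap.

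CDK1, the kinase that the cyclins switch on, was the gene of this role nearest to DMSO in the colonies. CDK1 was at 58.0 and 73.6 FPKM in DMSO, 2.24 and 2.59 in BLU667, 59.7 and 63.3 in BR8, 53.5 and 52.5 in BR10, and 33.7 and 33.2 in BR16. BR8 replicates 1 and 2 lay inside the range of the 2 DMSO libraries, BR10 just below it and BR16 farther below. CDK1 fell under BLU667 by 4.28 ± 0.11 on the log2 scale and differed from DMSO by -0.44 ± 0.09 (adjusted p = 0.00471) over the 3 colonies, a call that was lost without BR16. CCNB1, its cyclin partner, was at 121 ± 27.5 FPKM in DMSO, 5.84 ± 1.32 in BLU667, 37.7 ± 0.490 in BR8, 48.0 ± 1.70 in BR10 and 37.0 ± 0.410 in BR16 (mean ± SD, n = 2 libraries). The ratio of CCNB1 to CDK1 FPKM was 1.76 and 1.91 in DMSO, 2.19 and 2.61 in BLU667, 0.625 and 0.601 in BR8, 0.874 and 0.938 in BR10, and 1.11 and 1.10 in BR16. CDK1 thus exceeded CCNB1 in BR8 and BR10 and not in DMSO, BLU667 or BR16. These ratios are a description without a test. CDK1 transcripts are 37% GC and those of CCNB1 are 44.6% GC, and the part of base composition in the ratios was not tested. CCNA2, CDC25C, PTTG1 (securin) and ESPL1 (separase, which cleaves cohesin) changed by -4.34 ± 0.12, -2.90 ± 0.13, -3.35 ± 0.13 and -3.29 ± 0.12 in BLU667 and by -1.01 ± 0.09, -1.36 ± 0.10, -1.34 ± 0.11 and -1.25 ± 0.10 in the colonies against DMSO.

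The 4 mitotic kinases PBK, AURKA, PLK1 and PLK4 fell by a median of 4.27 on the log2 scale under BLU667 and stood at a median of -1.41 in the colonies against DMSO. The PBK libraries read 48.9 and 65.1 FPKM in DMSO, 0.551 and 0.771 in BLU667, 16.1 and 15.2 in BR8, 16.0 and 15.9 in BR10, and 10.1 and 8.33 in BR16. PBK, a kinase active in mitosis, had both the largest fall of the 4 under BLU667 (-5.12 ± 0.14, adjusted p = 8.73e-08) and the largest deficit of all 58 in the colonies on the log2(FPKM + 1) scale (-2.02 ± 0.12, adjusted p = 4.72e-06). PLK1 was at 40.6 and 37.4 FPKM in DMSO, 1.00 and 1.00 in BLU667, 9.27 and 9.45 in BR8, 12.2 and 13.9 in BR10, and 12.9 and 12.0 in BR16. PLK1, which acts on centrosomes, kinetochores and cytokinesis, was at most 13.9 FPKM in the colony libraries and at least 37.4 in DMSO, a difference of -1.68 ± 0.07. The PLK4 libraries read 15.3 and 20.1 FPKM in DMSO, 1.17 and 1.40 in BLU667, 10.3 and 10.6 in BR8, 9.58 and 9.09 in BR10, and 5.99 and 4.90 in BR16. PLK4, the kinase of centriole duplication, had the smallest fall of the 4, -3.02 ± 0.13 in BLU667, and BR16 was the lowest colony. AURKA, which matures the spindle poles, changed by -4.21 ± 0.13 in BLU667 and -1.14 ± 0.10 in the colonies.

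The 4 genes of the chromosomal passenger complex, which corrects faulty attachments at the centromere, fell together under BLU667 (median -4.03) and stood at a median of -1.18 in the colonies against DMSO. BIRC5 was at 40.2 and 42.3 FPKM in DMSO, 1.30 and 2.14 in BLU667, 26.0 and 23.6 in BR8, 15.7 and 18.2 in BR10, and 20.4 and 20.8 in BR16. BIRC5 (survivin) was the most abundant of the 4 in DMSO, and its highest colony was BR8. The CDCA8 libraries read 39.1 and 41.5 FPKM in DMSO, 1.06 and 1.72 in BLU667, 17.6 and 15.2 in BR8, 16.4 and 20.4 in BR10, and 16.5 and 15.0 in BR16. CDCA8 (borealin) had the largest fall on the log2(FPKM + 1) scale, -4.12 ± 0.15 in BLU667 (3.45% of DMSO left, against 2.93% for AURKB), and its colony libraries all lay between 15.0 and 20.4 FPKM. INCENP was at 22.3 and 16.3 FPKM in DMSO, 1.08 and 1.54 in BLU667, 6.09 and 6.67 in BR8, 7.88 and 9.41 in BR10, and 9.65 and 9.65 in BR16. INCENP, the scaffold of the complex, had the smallest fall (-3.13 ± 0.16) and its BR16 libraries lay above its BR8 libraries, while AURKB, the kinase of the complex, changed by -4.09 ± 0.10 in BLU667 and -1.31 ± 0.08 in the colonies. The AURKB to BIRC5 ratio of FPKM was 0.866 and 0.704 in DMSO, 0.704 and 0.456 in BLU667, 0.405 and 0.414 in BR8, 0.80 and 0.756 in BR10, and 0.729 and 0.662 in BR16.

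The 4 spindle checkpoint genes fell by a median of 3.92 on the log2 scale under BLU667 and were at a median of -1.17 in the colonies. The BUB1 libraries read 32.9 and 39.5 FPKM in DMSO, 0.527 and 0.706 in BLU667, 13.1 and 14.0 in BR8, 14.0 and 14.9 in BR10, and 8.39 and 8.27 in BR16. BUB1, a kinase that docks checkpoint proteins at kinetochores, had the largest fall (-4.52 ± 0.10). MAD2L1 was at 24.7 and 33.4 FPKM in DMSO, 1.06 and 1.29 in BLU667, 16.8 and 15.6 in BR8, 15.5 and 15.9 in BR10, and 10.4 and 9.68 in BR16. MAD2L1, the checkpoint protein that binds CDC20, had the smallest of the 4, -3.77 ± 0.13. BUB1B (BubR1) and TTK (MPS1, the kinase that starts checkpoint signalling) changed by -3.98 ± 0.11 and -3.86 ± 0.16 in BLU667 and by -1.20 ± 0.09 and -1.15 ± 0.13 in the colonies against DMSO. In all 4 the lowest colony mean was BR16.

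The 5 outer kinetochore genes, which make the contact with microtubules, fell by 3.29 to 4.36 on the log2 scale under BLU667 and were at a median of -1.09 in the colonies. The NUF2 libraries read 23.1 and 31.7 FPKM in DMSO, 0.304 and 0.428 in BLU667, 11.7 and 14.0 in BR8, 12.6 and 13.1 in BR10, and 8.15 and 6.87 in BR16. NUF2, which pairs with NDC80, was the most abundant of the 5 in DMSO and had the largest fall on the log2(FPKM + 1) scale, -4.36 ± 0.15. As a share of DMSO it left 1.34%, more than SPC25 (0.568%) and SPC24 (0.985%). KNL1 was at 12.9 and 15.3 FPKM in DMSO, 0.532 and 0.545 in BLU667, 7.45 and 6.93 in BR8, 6.48 and 6.78 in BR10, and 4.74 and 4.46 in BR16. KNL1, the platform for BUB1, had the smallest fall on that scale, -3.29 ± 0.09, with BLU667 at no more than 0.545 FPKM. By share of DMSO left the smallest was NDC80 at 5.49%, against 3.82% for KNL1.

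SPC24 and SPC25, partners in the inner end of the NDC80 complex, stood at different shares of their DMSO level in the colonies, a difference that was not tested. The SPC24 libraries read 23.8 and 19.3 FPKM in DMSO, 0.120 and 0.304 in BLU667, 3.87 and 4.89 in BR8, 5.77 and 7.22 in BR10, and 3.43 and 3.14 in BR16. SPC24 was at 21.9% of its DMSO level as a colony mean, the lowest share of the 58, with a difference of -2.01 ± 0.12 (adjusted p = 6.09e-06). SPC25 was at 16.5 ± 1.81 FPKM in DMSO, 11.8 ± 0.984 in BR8, 11.5 ± 0.858 in BR10 and 6.65 ± 0.393 in BR16 (mean ± SD, n = 2 libraries), a colony difference of -0.71 ± 0.10 (adjusted p = 0.000518). The SPC24 to SPC25 ratio of FPKM was 1.56 and 1.08 in DMSO, 0.310 and 0.441 in BR8, 0.532 and 0.598 in BR10, and 0.495 and 0.493 in BR16, with no overlap between DMSO and the colonies. In BLU667 it was 1.62 in replicate 2, and SPC25 had no reads in replicate 1. NDC80 and NUF2, the outer pair of the complex, had a ratio of 0.763 and 0.648 in DMSO, 4.15 and 1.94 in BLU667, 1.11 and 0.921 in BR8, 0.948 and 0.925 in BR10, and 0.991 and 1.05 in BR16. The BLU667 ratios of NDC80 to NUF2 rest on NUF2 levels under 1 FPKM and differed between the 2 libraries, so they are uncertain. SPC24 transcripts are 58.6% GC and those of SPC25 are 40% GC. The part of base composition in these ratios was not tested.

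The 10 centromere genes had the smallest median fall of the 9 roles under BLU667, -3.11, and the smallest median difference in the colonies, -0.96. By share of DMSO left under BLU667 their median, 5.72%, was close to the 5.65% of the spindle and cytokinesis genes. CENPF was at 57.6 and 63.4 FPKM in DMSO, 2.29 and 3.21 in BLU667, 22.6 and 26.8 in BR8, 36.4 and 37.8 in BR10, and 23.2 and 21.2 in BR16. CENPF, a large protein of the outer corona, was the most abundant of the 10 in DMSO and had the largest fall on the log2(FPKM + 1) scale, -4.04 ± 0.13. CENPA, the histone variant that marks the centromere, changed by -3.91 ± 0.14 in BLU667 and -1.03 ± 0.11 in the colonies, but left the smallest share of DMSO under BLU667, 1.60% against 4.55% for CENPF. CENPE, a kinetochore kinesin, changed by -3.43 ± 0.11 and -1.25 ± 0.09. The remaining 7, CENPH, CENPI, CENPK, CENPM, CENPN, CENPU and CENPW, belong to the constitutive network that sits on centromeric chromatin, and they held both the gene nearest to BLU667 and several of those nearest to DMSO in the colonies.

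CENPH stayed low in the colonies. The CENPH libraries read 16.1 and 19.8 FPKM in DMSO, 4.18 and 4.03 in BLU667, 6.36 and 5.93 in BR8, 3.91 and 4.34 in BR10, and 5.43 and 6.15 in BR16. The BR10 libraries spanned the BLU667 libraries, and the BR8 and BR16 libraries lay above both of them and well below DMSO. CENPH had the highest share of DMSO left under BLU667 (22.8%) and a change of -1.89 ± 0.11, while the colony mean stood -1.59 ± 0.09 (adjusted p = 3.74e-06) from DMSO and 0.30 ± 0.09 (adjusted p = 0.018) from BLU667. That last difference is the smallest of the 58, and it lost its call without BLU667 replicate 1 (adjusted p = 0.0703), without BLU667 replicate 2 (0.105), without BR16 (0.0508) and with the 3 colony means as replicates (0.272), all in limma.

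CENPU, CENPN and CENPK, of the same network, were among the genes nearest to DMSO in the colonies. CENPU was at 17.8 and 28.4 FPKM in DMSO, 1.21 and 1.60 in BLU667, 20.2 and 21.5 in BR8, 20.9 and 22.1 in BR10, and 9.03 and 8.28 in BR16. The CENPN libraries read 8.95 and 15.1 FPKM in DMSO, 1.99 and 1.68 in BLU667, 11.5 and 12.5 in BR8, 8.34 and 7.46 in BR10, and 5.80 and 5.58 in BR16. CENPK was at 7.62 and 11.3 FPKM in DMSO, 0.435 and 0.641 in BLU667, 7.74 and 7.35 in BR8, 8.78 and 8.24 in BR10, and 4.71 and 4.40 in BR16. In each of the 3 the DMSO libraries lay far apart, with replicate 2 the higher, and the BR8 libraries lay between them or overlapped the lower, while both BR16 libraries were below both DMSO libraries. Over the 3 colonies the differences from DMSO were -0.49 ± 0.15 (adjusted p = 0.0285) for CENPU, -0.47 ± 0.16 (adjusted p = 0.0394) for CENPN and -0.43 ± 0.13 (adjusted p = 0.0235) for CENPK. Without DMSO replicate 2 they were -0.16 (adjusted p = 0.225, limma), -0.12 (0.339) and -0.17 (0.185), and without BR16 these calls were lost as well. The CENPH to CENPK ratio of FPKM was 2.12 and 1.74 in DMSO, 0.822 and 0.806 in BR8, 0.446 and 0.527 in BR10, and 1.15 and 1.40 in BR16. In BLU667, where CENPK was at 0.435 and 0.641 FPKM, it was 9.608 and 6.285.

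The 12 kinesins, motor proteins that slide, bundle or shorten microtubules, fell by a median of 3.80 on the log2 scale under BLU667 and were at a median of -1.12 in the colonies. The KIF11 libraries read 62.5 and 84.9 FPKM in DMSO, 6.84 and 7.39 in BLU667, 38.3 and 36.9 in BR8, 37.9 and 40.0 in BR10, and 23.3 and 21.2 in BR16. KIF11 (Eg5), which pushes the spindle poles apart, was the most abundant of the 12 in DMSO. KIF20A was at 46.7 and 44.5 FPKM in DMSO, 0.531 and 1.42 in BLU667, 13.8 and 18.2 in BR8, 24.4 and 26.8 in BR10, and 16.5 and 15.7 in BR16. KIF20A, a kinesin of the central spindle and cytokinesis, had the largest fall on the log2(FPKM + 1) scale, -4.60 ± 0.20, although its BLU667 libraries stood apart from each other. It left 2.14% of DMSO, more than KIF18B (0.727%), KIF14 (1.09%) and KIFC1 (1.58%). The KIF18A libraries read 11.5 and 18.2 FPKM in DMSO, 2.20 and 2.40 in BLU667, 6.29 and 6.07 in BR8, 6.98 and 6.60 in BR10, and 4.13 and 3.85 in BR16. KIF18A, which restrains chromosome movement at the metaphase plate, had the smallest, -2.23 ± 0.17. KIF2C, which depolymerises microtubules, and KIFC1, a minus-end motor, changed by -4.25 ± 0.09 and -4.43 ± 0.14 in BLU667, and KIF23, of the midzone centralspindlin complex, by -3.88 ± 0.14. KIF4A, KIF18B and KIF22 changed by -3.72 ± 0.15, -4.20 ± 0.14 and -2.63 ± 0.16.

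Of the spindle and cytokinesis genes TPX2, ASPM, NUSAP1 and ANLN were tested, with a median of -3.94 under BLU667 and -1.05 in the colonies. TPX2 was at 103 and 121 FPKM in DMSO, 4.74 and 4.63 in BLU667, 47.6 and 52.3 in BR8, 56.3 and 64.3 in BR10, and 39.6 and 36.7 in BR16. TPX2, which activates AURKA and nucleates spindle microtubules, had the largest fall on the log2(FPKM + 1) scale, -4.31 ± 0.11, and left 4.18% of DMSO against 2.79% for ASPM. The NUSAP1 libraries read 4.99 and 5.34 FPKM in DMSO, 0.771 and 0.580 in BLU667, 1.64 and 1.88 in BR8, 3.29 and 2.51 in BR10, and 1.95 and 2.67 in BR16. NUSAP1, which bundles spindle microtubules, had the smallest change of the 58 under BLU667 on the log2(FPKM + 1) scale, -1.88 ± 0.14, at the lowest DMSO level of the 58, and left 13.1% of DMSO against 22.8% for CENPH.

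ANLN (anillin, the scaffold of the contractile ring) was the only one among the tested genes with a mean FPKM in any colony above the DMSO mean FPKM. On the log2(FPKM + 1) scale CENPN in BR8 was also above DMSO, by 0.03, a difference that was not called. ANLN was at 81.5 and 118 FPKM in DMSO, 6.49 and 7.68 in BLU667, 122 and 114 in BR8, 69.3 and 71.3 in BR10, and 48.2 and 45.4 in BR16. In BR8 it was at 118.8% of the DMSO mean, inside or just above the range of the DMSO libraries, and it was lower in BR10 and lowest in BR16. Its difference from DMSO over the 3 colonies was -0.42 ± 0.13 (adjusted p = 0.0268), and it was -0.16 (adjusted p = 0.200, limma) without DMSO replicate 2, and the call was lost without BR16 too. Under BLU667 it fell by 3.62 ± 0.16 on the log2 scale.

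The 6 genes of chromosome structure fell by a median of 4.27 on the log2 scale under BLU667 and were at a median of -1.23 in the colonies. The TOP2A libraries read 123 and 163 FPKM in DMSO, 1.47 and 3.50 in BLU667, 69.0 and 67.2 in BR8, 70.6 and 76.2 in BR10, and 42.9 and 38.9 in BR16. TOP2A, the topoisomerase that untangles sister chromatids, had the largest fall of all 58 on the log2(FPKM + 1) scale, -5.42 ± 0.25 (adjusted p = 7.72e-07), and on that scale the largest difference between colonies and BLU667, 4.17 ± 0.20 (adjusted p = 1.21e-06). It left 1.73% of DMSO under BLU667, more than SPC25, KIF18B, NCAPH and MKI67 (1.01%) among others. MKI67 was at 66.7 and 66.0 FPKM in DMSO, 0.621 and 0.723 in BLU667, 15.4 and 17.5 in BR8, 25.3 and 32.2 in BR10, and 21.2 and 18.1 in BR16. MKI67 (Ki-67, which coats mitotic chromosomes and is a standard marker of dividing cells) changed by -5.33 ± 0.13 in BLU667 and -1.62 ± 0.10 in the colonies, where its highest colony was BR10. The SMC4 libraries read 64.9 and 83.7 FPKM in DMSO, 14.8 and 13.6 in BLU667, 32.5 and 34.1 in BR8, 34.4 and 36.7 in BR10, and 19.5 and 17.5 in BR16. SMC4, an ATPase of condensin, had the smallest fall of the 6 at -2.30 ± 0.12. SMC4 and SMC2, the ATPase partners in condensin, left 19.1% and 16.6% of their DMSO level in BLU667, while NCAPH and NCAPG, subunits of the same complex that the SMC proteins carry, left 0.736% and 3.83%. SMC2 to SMC4 ratios of FPKM were 0.495 and 0.520 in DMSO, 0.369 and 0.522 in BLU667, and between 0.796 and 0.908 in the 6 colony libraries.

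**Figure D2:**
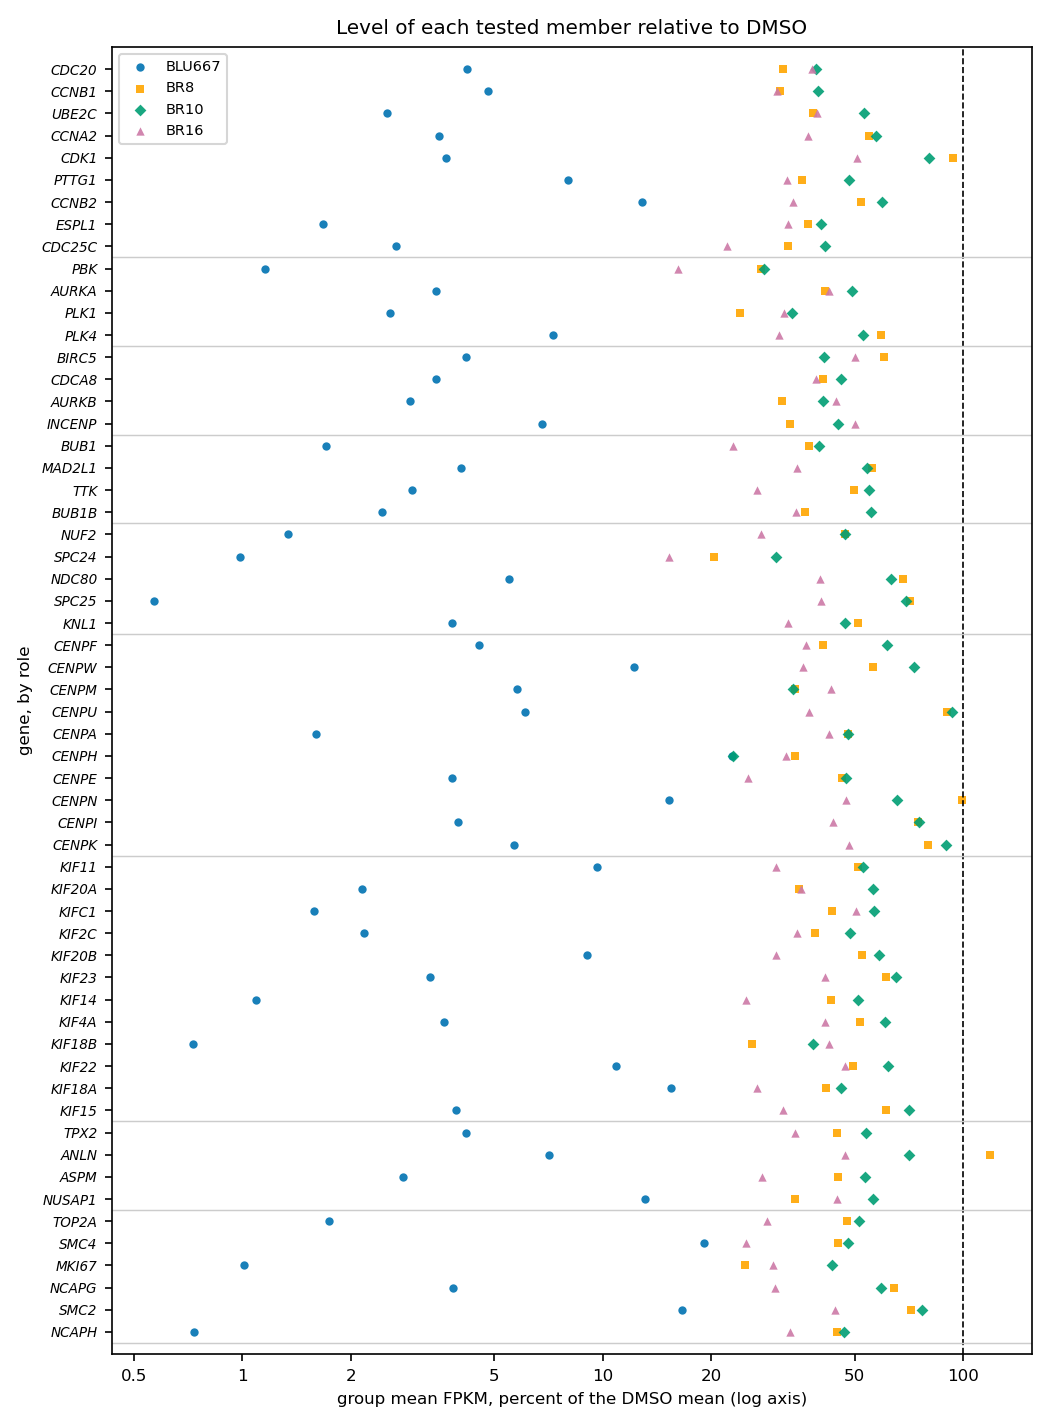
Group mean FPKM of each of the 58 tested genes as a percent of its DMSO mean, on a log axis, with 1 symbol for each of BLU667, BR8, BR10 and BR16 (n = 2 libraries each) and a dashed line at 100%. BLU667 lies between 0.568% and 22.8%, and the colonies lie between 15.2% (SPC24 in BR16) and 118.8% (ANLN in BR8).

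Compared singly with DMSO, each colony was lower in most of the 58 genes. BR8 was lower than DMSO in 53 and higher in 0, with 27.3% of all tested genes lower. It missed the call in CDK1 (-0.09 ± 0.11, adjusted p = 0.553), CENPK (-0.27 ± 0.16, adjusted p = 0.182), CENPN (0.03 ± 0.19, adjusted p = 0.898), CENPU (-0.11 ± 0.19, adjusted p = 0.661) and ANLN (0.27 ± 0.16, adjusted p = 0.188). Without DMSO replicate 2 the BR8 differences from DMSO were 0.38 in CENPN and 0.53 in ANLN. Without DMSO replicate 1 CENPN was instead lower in BR8 than in DMSO. The direction of CENPN thus depended on which DMSO library was kept. BR10 was also lower in 53 and higher in 0, with 21.5% of all tested genes lower. It missed the call in CDK1 (-0.30 ± 0.11, adjusted p = 0.0682), CENPK (-0.12 ± 0.16, adjusted p = 0.586), CENPN (-0.51 ± 0.19, adjusted p = 0.0674), CENPU (-0.07 ± 0.19, adjusted p = 0.809) and SMC2 (-0.35 ± 0.15, adjusted p = 0.0991). BR16 was lower than DMSO in all 58, with 23.6% of all tested genes lower and an adjusted p (limma) of at most 0.00537. A p that misses the threshold does not show that the levels were alike.

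Against BLU667, BR8 was higher in all 58 genes (30.0% of all tested genes), BR16 in all 58 (32.1%) and BR10 in 57 (27.9%). The exception was CENPH in BR10, at 0.01 ± 0.11 (adjusted p = 0.968). The median share of the DMSO level was 44.8% in BR8 (20.3% in SPC24 to 118.8% in ANLN), 52.8% in BR10 (23.0% in CENPH to 92.9% in CENPU) and 34.6% in BR16 (15.2% in SPC24 to 50.8% in CDK1). A level of at least 90% of DMSO was found in 4 genes in BR8 (CDK1 at 93.5%, CENPU at 90.2%, CENPN at 99.5% and ANLN), in CENPU alone in BR10 and in 0 in BR16. The plot of 6 genes by library shows these extremes.

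**Figure D3:**
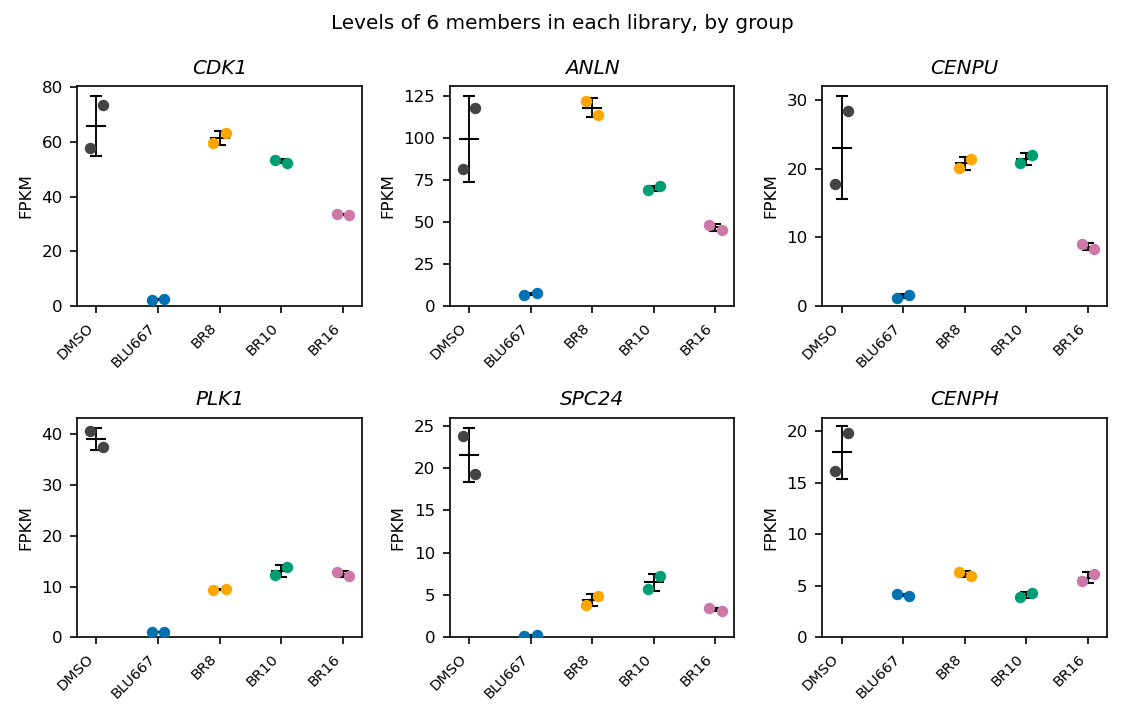
FPKM of CDK1, ANLN, CENPU, PLK1, SPC24 and CENPH by group, each point 1 library, with the mean and SD of the 2 libraries as a bar. CDK1, ANLN and CENPU in BR8 reach the DMSO libraries, PLK1 and SPC24 reach no more than 13.9 and 7.22 FPKM in the colony libraries, and CENPH in BR10 overlaps BLU667.

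The colonies also differed from each other. In the moderated F test over the 3 colonies 48 of the 58 genes were called, with 58.1% of all tested genes called. The 10 that were not were CCNB1, CDC20, ESPL1, AURKA, CDCA8, CENPA, CENPM, KIF4A, KIF22 and KIFC1. The lowest colony mean was BR16 in 44 genes, BR8 in 11 and BR10 in 3, and the highest was BR10 in 41, BR8 in 13 and BR16 in 4. Both BR16 libraries lay below all 4 other colony libraries in 38 genes and above them in 4. Neither these orderings nor the lowest and highest colony means were counted over all tested genes, so how common they were there is not known.

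BR16 was lower than BR8 in 33 genes (24.1% of all tested genes lower) and higher in AURKB, INCENP, KIF18B and PLK1 (24.5% higher), with a median of -0.53 over the 58 and -0.03 over all tested genes. Of these 4 only AURKB was called higher without BR16 replicate 1, AURKB and PLK1 without BR8 replicate 2, and AURKB, PLK1 and KIF18B without BR16 replicate 2. BR16 was lower than BR10 in 41 (21.1%) and higher in CENPH (22.0%), with a median of -0.62. The 8 genes with the smallest F test p were KIF14, NCAPG, ANLN, KIF20B, SMC4, KIF15, ASPM and CDK1, and BR16 was the lowest colony in each. KIF14 was at 20.5 and 25.6 FPKM in DMSO, 0.211 and 0.293 in BLU667, 9.97 and 9.85 in BR8, 11.8 and 11.8 in BR10, and 5.58 and 5.93 in BR16. The NCAPG libraries read 32.9 and 44.2 FPKM in DMSO, 1.54 and 1.41 in BLU667, 23.9 and 25.5 in BR8, 22.4 and 23.2 in BR10, and 12.5 and 10.7 in BR16. KIF14, a kinesin of cytokinesis, was lower in BR16 than in BR8 by 0.69 ± 0.10 and than in BR10 by 0.92 ± 0.10 on the log2 scale, and NCAPG, a condensin subunit, differed by -1.03 ± 0.13 and -0.92 ± 0.13. KIF20B was at 25.9 and 33.5 FPKM in DMSO, 2.67 and 2.70 in BLU667, 15.7 and 15.5 in BR8, 17.7 and 17.0 in BR10, and 9.43 and 8.59 in BR16. The KIF15 libraries read 10.4 and 13.1 FPKM in DMSO, 0.322 and 0.599 in BLU667, 6.77 and 7.59 in BR8, 8.15 and 8.44 in BR10, and 3.91 and 3.50 in BR16. KIF20B, which acts at the end of cytokinesis, and KIF15, which backs up KIF11 in the spindle, differed by -0.73 ± 0.11 and -0.80 ± 0.13 between BR16 and BR8. ASPM was at 35.4 and 42.5 FPKM in DMSO, 0.887 and 1.28 in BLU667, 17.1 and 17.8 in BR8, 20.3 and 21.4 in BR10, and 11.0 and 10.5 in BR16. ASPM, a spindle pole protein, differed by -0.65 ± 0.12, and in all 5 the BR8 and BR10 libraries lay above the BR16 libraries without overlap.

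BR10 and BR8 were closer to each other, and this held over all tested genes too. Of these, 22.8% differed between BR10 and BR8, 48.6% between BR16 and BR8 and 43.1% between BR16 and BR10. The 12 of 58 that differed between BR10 and BR8 are near the 22.8%. BR10 was higher than BR8 in AURKB, BUB1B, CENPF, KIF18B, KIF2C, MKI67, NUSAP1, PLK1 and UBE2C (9 genes, with 11.5% of all tested genes higher) and lower in ANLN, BIRC5 and CENPH (3 genes, 11.3% lower), with a median of 0.14 over the 58. The sizes ran from -0.74 ± 0.16 (adjusted p = 0.0111) in ANLN to 0.76 ± 0.13 (adjusted p = 0.00373) in MKI67. This count of 12 rests on the spread of few libraries: it was 1 without BR8 replicate 1, 7 without BR8 replicate 2, 3 without BR10 replicate 1 and 3 without BR10 replicate 2.

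Base composition moved with the differences between colonies. The transcripts of the 59 genes were 34.5% to 60.1% GC, with a median of 43.1% over the tested ones against 48.7% over all tested genes. The Spearman correlation of the log2 difference with GC was 0.60 over all tested genes and 0.76 over the 58 for BR16 against BR8, and 0.53 and 0.72 for BR16 against BR10, as a description over genes that share the same 4 libraries. Genes lower in BR16 than in BR8 had a median GC of 39.5% and those higher one of 57.4%. After the GC trend of each library was removed, BR16 was lower than BR8 in 23 genes, of which 20 were among the 33, and higher in 3, of which 1 (AURKB) was among the 4. INCENP, KIF18B and PLK1 were then at 0.20 (adjusted p = 0.228, limma), 0.15 (0.257) and 0.08 (0.346), and NUSAP1 and MKI67 were called higher instead, at 0.49 and 0.45. The median moved from -0.53 to -0.28 and the correlation over the 58 to 0.43. Called both times were ANLN (-1.32, then -1.01) and CENPU (-1.18, then -0.82), the pair with the largest differences. BR16 was lower than BR10 in 37 genes after the same step, of which 34 were among the 41, and higher in CENPH in both. For the falls under BLU667 the correlation with GC was -0.12 over all tested genes and -0.22 over the 58, and all 58 were called lower with the trend removed. For the single colonies against DMSO the correlation over the 58 was -0.54 in BR8, -0.44 in BR10 and 0.34 in BR16. Over all tested genes it was -0.28, -0.23 and 0.27. With the trend removed it was -0.4, -0.43 and -0.03 over the 58.

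**Figure D4:**
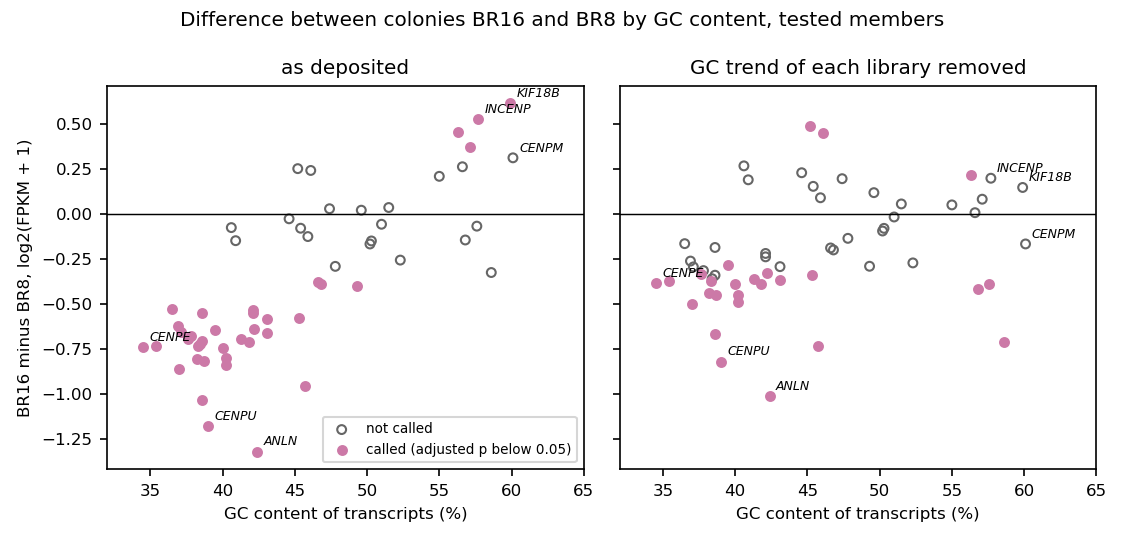
Log2 difference of BR16 from BR8 for the 58 tested genes against the GC content of their transcripts in percent, with the values as deposited (left) and after removal of each library's GC trend (right). Filled points have an adjusted p below 0.05: 33 lower and 4 higher on the left, 23 lower and 3 higher on the right, with ANLN lowest in both.

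Other genes of the same machinery, listed by function and outside the 59, were mostly lower under BLU667 as well. The background for the counts that follow is 31.2% of all tested genes lower and 29.0% higher in BLU667 than in DMSO, 26.3% lower and 22.9% higher in the colonies than in DMSO, and 32.4% higher and 28.7% lower in the colonies than in BLU667. Of 29 other centromere and kinetochore genes, 26 were lower and 1 was higher in BLU667 than in DMSO (median -2.11), 24 were lower and 0 higher in the colonies than in DMSO, and 23 were higher and 1 was lower in the colonies than in BLU667. HJURP, the chaperone that loads CENPA, changed by -4.58 ± 0.11 in BLU667 and SKA3, of the SKA complex that couples kinetochores to microtubules, by -3.82 ± 0.12, whereas SKA2 rose by 0.57 ± 0.11. Of 32 other spindle, centrosome and cytokinesis genes, 31 were tested; 27 were lower and 2 higher in BLU667 (median -1.54), 27 were lower and 0 higher in the colonies than in DMSO, and 25 were higher and 4 lower in the colonies than in BLU667. DLGAP5, a spindle assembly factor, changed by -4.55 ± 0.16 and NEK2, a centrosomal kinase, by -4.38 ± 0.13, while NUMA1, a spindle pole protein that is also a nuclear structural protein outside mitosis, rose by 0.56 ± 0.14 and KIF3A, a motor of cilia and transport, by 0.20 ± 0.08.

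Of 21 other genes of the anaphase-promoting complex and of entry control, 14 were lower and 2 higher in BLU667 (median -0.59), 9 were lower and 0 higher in the colonies than in DMSO, and 13 were higher and 1 was lower in the colonies than in BLU667. UBE2S, which extends ubiquitin chains for the complex, changed by -4.07 ± 0.14 and PKMYT1, an inhibitory kinase of CDK1, by -3.09 ± 0.19, while CDC16 and ANAPC4, core subunits of the complex, rose by 0.33 ± 0.09 and 0.31 ± 0.09. Of 12 other cohesin and condensin genes, 8 were lower and 1 higher in BLU667 (median -1.35), 9 were lower and 0 higher in the colonies than in DMSO, and 7 were higher and 3 lower in the colonies than in BLU667. CDCA5 (sororin) changed by -3.82 ± 0.12 and NCAPG2, of the second condensin complex, by -3.10 ± 0.09, while STAG2, a cohesin subunit, rose by 0.29 ± 0.08. All values in these lists are limma log2 changes ± SE, n = 2 libraries per group.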

How the data were processed

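Per the labels' protocols, total RNA was isolated with a Direct-zol kit and TRI reagent, treated with GlobinClear and made into NEB non-directional libraries. Per the submitters' processing notes, CASAVA, STAR 2.5, HTSeq 0.6.1 and DESeq2 (version given as 2) were used with GRCh38 (the annotation release is not stated in these). The table the authors deposited holds FPKM, 1 column per library, with 58735 genes. The gene list, its 9 roles, the 94 other pathway genes and the tests were chosen with earlier results of these data known, and patterns shown before are no independent support.

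The test was limma (version 3.58.1, R 4.3.3) with a trended prior variance, fitted to log2(FPKM + 1) of all 5 groups at once (5 residual degrees of freedom), for the 13927 genes reaching 1 FPKM in 2 or more libraries. Tests were two-sided, with Benjamini-Hochberg adjustment over all genes tested and calls below 0.05. The colony mean is the mean of the 3 colony means. Depth was 15243703 to 21904245 reads in genes per library; adding 1 FPKM understates changes of low genes. Values in every library were given, by rule, for the most abundant gene in DMSO and the largest and smallest BLU667 change in each role, the 5 largest and 5 smallest colony differences, the 8 smallest F test p-values and any gene below the filter; PTTG1 and other genes are given by group or by change. GC content and exon overlaps came from GENCODE 29 on GRCh38. Other pseudocounts, filters, scalings and fits were tried as alternatives, the scripts were tested on simulated data, and figures used matplotlib 3.10.9.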

Additional observations from a re-analysis of the deposited data

Results flagged for a closer look

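The change against DMSO differed between colonies in part of the 58 tested genes, by limma tests of the difference itself with Benjamini-Hochberg adjustment. The number of genes that differed was 12 of 58 between BR10 and BR8, where 22.8% of all tested genes differed, 37 between BR16 and BR8 (48.6% of all tested genes), and 42 between BR16 and BR10 (43.1%). The share between BR10 and BR8 is near the background. With each library's GC trend removed these numbers were 19, 26 and 38.

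The genes of the F test among the 3 colonies with the smallest adjusted p (limma) were KIF14 (0.000649), NCAPG (0.000948), ANLN (0.000974), KIF20B (0.00107), SMC4 (0.00112), KIF15 (0.00117), ASPM (0.0012) and CDK1 (0.00125). BR16 was the lowest colony in each of the 8, and the transcripts of these genes are 35.4% to 42.4% GC.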

How the results depend on the processing

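The 58 lower genes under BLU667 were called lower in every setting in which they were tested (57 with a filter of 5 FPKM, 59 with no filter). The colony mean was called lower than DMSO in 54 to 58 genes when single libraries were left out, the fewest without DMSO replicate 2 or without BR16 replicate 2, and in 42 to 58 under the other settings, the fewest with the 3 colony means as replicates. The count between BR10 and BR8, 12, was 7 with a pseudocount of 0.1, 7 with no filter and 19 with the GC trend removed, and 1 to 15 when single libraries were left out, the fewest without BR8 replicate 1. Under the settings that left out no single library, the count was 26 to 39 between BR16 and BR8 and 37 to 44 between BR16 and BR10. In the F test among the colonies it was 39 to 50. Leaving out a single library of a compared colony lowered each of these counts. No gene changed direction under any of these settings in BLU667 against DMSO or in the colony mean against either. In single-colony comparisons some genes did, each with a difference not called as reported.

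Replicate numbers did not pair the libraries: deviations of same-numbered libraries correlated at -0.163 to 0.109 over 10 pairs of groups. With the replicate number as a block, 10 genes differed between BR10 and BR8, 36 between BR16 and BR8, and 42 between BR16 and BR10, and CENPN lost its call in the colony mean against DMSO (adjusted p = 0.051, limma).

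Depth limits the lowest levels: 21 tested genes had under 100 reads over both BLU667 libraries. A scaling by median of ratios or quantiles moved the median of all genes by under 0.1 (log2) in the comparisons of BLU667, DMSO and the colony mean. With 1 line, 3 colonies and 2 libraries per group, the comparisons describe these cultures.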
